A study of Mus musculus with 18 samples.

Results

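The 9 genes described here are the adult haemoglobin genes Hba-a1, Hba-a2, Hbb-bs and Hbb-bt, the red cell heme synthesis gene Alas2, and the tissue iron genes Tfrc, Fth1, Ftl1 and Slc40a1. They were chosen by name, 9 of 34150 genes in the files, and each of the 9 was abundant enough to be tested, averaging 0.5 FPKM or more across all libraries. Their levels were followed in 18 RNA-seq libraries made from mouse hearts after removal of ribosomal RNA. The groups were 6 HXP libraries, from mice given the HXP treatment in a model of acute myocardial infarction, 6 MI libraries, from mice of the infarction model, and 6 control libraries. The labels give neither what HXP stands for nor its dose, the times of infarction and collection, the strain, sex or age, nor whether controls had surgery. They do not say whether a library holds 1 mouse, so p-values measure only the spread between these libraries.

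Haemoglobin is a tetramer of alpha and beta chains, each holding a heme group, and red cells carry its mRNA into every tissue that still holds blood. Iron enters most cells with transferrin through the transferrin receptor (Tfrc), is stored in a ferritin shell of heavy (Fth1) and light (Ftl1) chains, and leaves through ferroportin (Slc40a1). When a cell is short of iron, iron regulatory proteins bind hairpins called iron-responsive elements. A hairpin in the 5′ UTR then blocks translation, and hairpins in the 3′ UTR protect the mRNA from decay.

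Depth was even, at 75.7 to 80.9 M reads per library as recovered from the steps of the FPKM values (fragments per kilobase of exon and per M reads, a per-length scale). Over the 13710 genes tested, the median log2 fold change was 0.27 in MI against control, -0.12 in HXP against MI and 0.16 in HXP against control, and each gene below is read against these values. HXP 5 and HXP 6 stood apart from the other 16 libraries. Their GC-rich transcripts were low, with a median level in the top decile of GC content minus that in the bottom decile of -0.59 in HXP 5 and -0.84 in HXP 6 on the log2 scale. That difference ran from -0.22 to 0.13 in the other HXP libraries, from -0.06 to 0.28 in MI and from -0.12 to -0.00 in control. Each of the 8 cardiomyocyte markers was detected, at summed levels of 8550 to 14633 FPKM in HXP, 9321 to 12279 FPKM in MI and 10937 to 12335 FPKM in control. The lung epithelium markers summed to 1167 FPKM in MI 5, with a median of 0.435 FPKM over the MI libraries, a range of 0.141 to 0.493 FPKM in HXP and of 0.061 to 0.180 FPKM in control.

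The globins lie in 2 clusters. Hba-a1 (ENSMUSG00000069919, GRCm38 chromosome 11, 32283511 to 32284465, plus strand) and Hba-a2 (ENSMUSG00000069917, 32296489 to 32297298, plus strand) encode the alpha chain. Hbb-bs (ENSMUSG00000052305, chromosome 7, 103826534 to 103828096, minus strand) and Hbb-bt (ENSMUSG00000073940, 103812524 to 103813996, minus strand) encode the beta chain. Since alpha and beta globin mRNA moved together in 16 libraries and apart in HXP 5 and HXP 6, 1 promoter of each kind is shown. The 110 bases before the RefSeq start (GRCm38.p6) are given in the direction of transcription, with the CCAAT box and the TATA motif ATATAA in capitals where either strand holds them:
Hba-a1, chr11:32283562-32283671, plus strand: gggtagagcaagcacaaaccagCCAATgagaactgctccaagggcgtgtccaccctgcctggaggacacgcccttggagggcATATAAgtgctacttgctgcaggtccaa
Hbb-bs, chr7:103827929-103828038, minus strand: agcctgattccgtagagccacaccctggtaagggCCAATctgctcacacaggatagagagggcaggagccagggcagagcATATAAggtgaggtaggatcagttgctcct
The CCAAT box began 88 bases before the start in Hba-a1 and 76 in Hbb-bs, and ATATAA 28 and 30 bases before it. Among the same windows of 32851 RefSeq promoters, 20.2% held CCAAT or its reverse complement and 4.09% held ATATAA or its reverse complement. The promoters of Hba-a1 and Hba-a2 shared an unbroken run of 297 of 300 bases, against 14 bases for Hbb-bs and Hbb-bt. The transcripts are also alike: 56.5% of the 100-base windows of Hba-a1 occur unchanged in Hba-a2, and 62.6% of those of Hbb-bs in Hbb-bt. How reads in these stretches were assigned is not given in the sources used here, so the split within each pair is uncertain and the sum of each pair is safer.

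Adult globin mRNA was abundant in every library, with wide and overlapping ranges in the 3 groups. The 4 globins summed to 2466, 2933 and 8452 FPKM (lowest, median and highest) in HXP, to 3091, 4515 and 9200 FPKM in MI and to 1908, 2720 and 12188 FPKM in control. In bulk tissue, more cells of a type and more RNA per cell cannot be told apart. The ranges of the groups overlapped, and the widest spread, 6.39 times from lowest to highest, was among controls. Control 6, control 3, MI 3 and HXP 1 were the libraries richest in globin mRNA of their groups. Hbb-bs, the more abundant beta gene, stood at 825.0, 1276 and 2621 FPKM in HXP, at 1009, 1450.3 and 2130.1 FPKM in MI and at 588, 885 and 3750.3 FPKM in control. It made up 64.1% ± 1.9 of beta globin FPKM in HXP, 63.9% ± 5.5 in MI and 67.6% ± 1.4 in control (SD, n = 6 each). Hbb-bt followed it, at 434, 709 and 1681 FPKM in HXP, 469, 791 and 1738 FPKM in MI and 293, 429 and 1820.3 FPKM in control. The embryonic beta-like globin Hbb-y was listed at 0 in all 6 HXP and all 6 control libraries and in 5 of 6 MI libraries, with 0.0820 FPKM in MI 5.

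**Figure D1:**
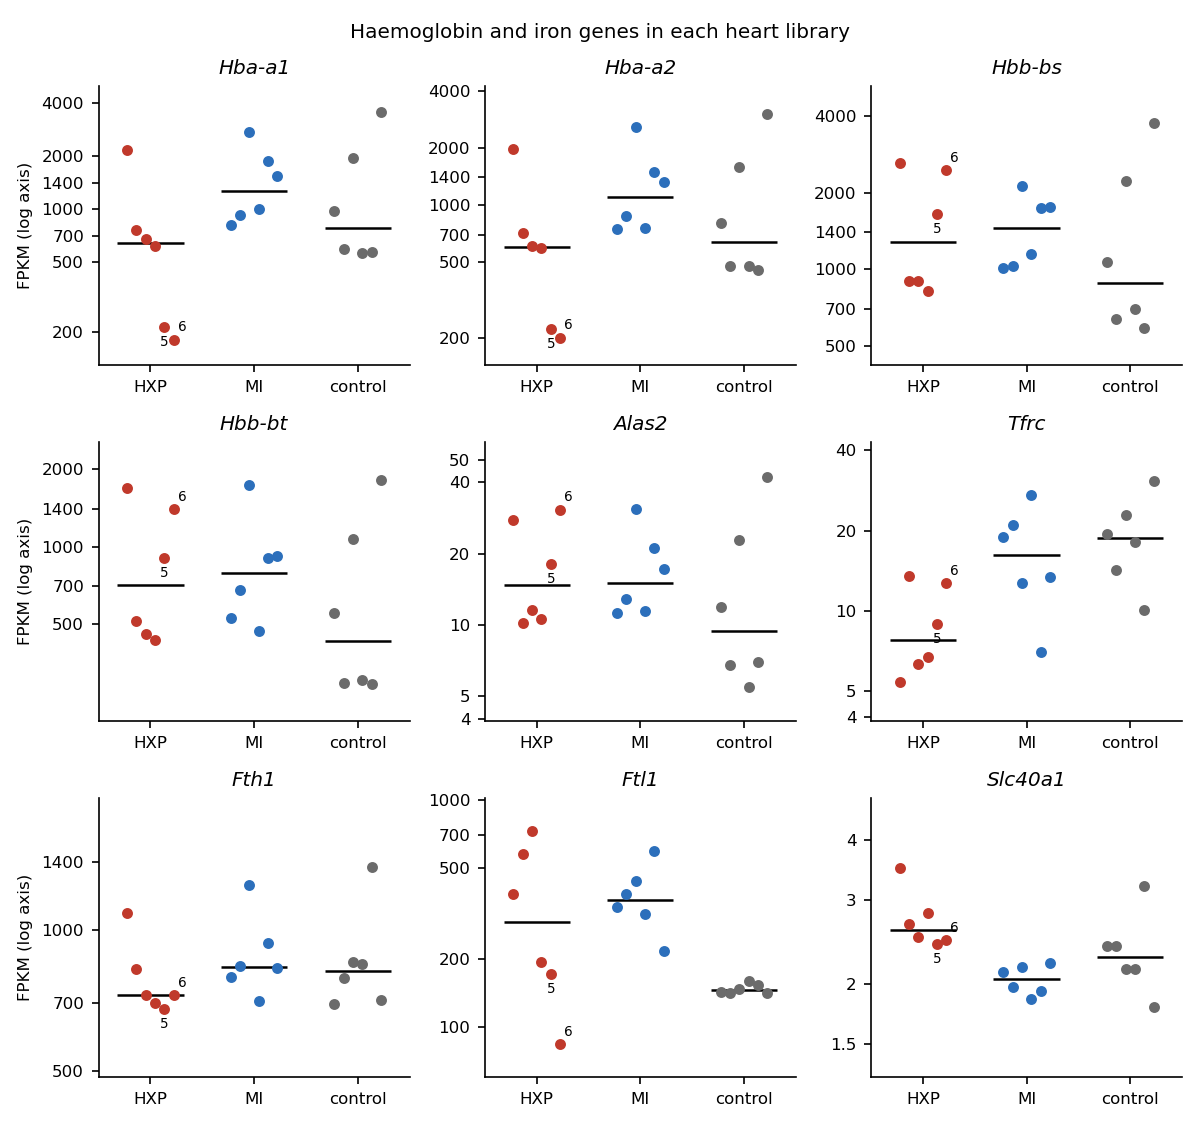
FPKM of each gene (log axis) in the 6 HXP, 6 MI and 6 control libraries; points are libraries in replicate order, bars are group medians, and 5 and 6 mark HXP 5 and HXP 6. Hba-a1 and Hba-a2 are low in HXP 5 and HXP 6 while the beta globins are not, and Ftl1 in MI lies above all 6 controls.

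On the per-length scale, Hbb-bs had the highest mean of the 9 genes in HXP and control, and Hba-a1 in MI, where Hba-a1 averaged 1478 ± 739 FPKM and Hbb-bs 1470.4 ± 468 FPKM (SD, n = 6). The globins and Fth1 filled the first 5 ranks in all 3 groups, and several neighbours differed by less than their SDs, as these 2 did. Ftl1 came at rank 6 in each group and Slc40a1 last.

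Alpha globin mRNA split the HXP group. Hba-a1 stood at 2163, 755, 676 and 612 FPKM in HXP 1 to HXP 4 and at 212 and 180 FPKM in HXP 5 and HXP 6. It ran from 809 to 2737 FPKM in MI (median 1266) and from 558 to 3586 FPKM in control (median 781). Hba-a2 showed the same order, with 221 and 200.2 FPKM in HXP 5 and HXP 6, 596 to 1986 FPKM in the other HXP libraries, 745 to 2594 FPKM in MI and 457 to 3032 FPKM in control. Both libraries were thus below every MI and control library for both alpha genes, on at least 11219 reads for Hba-a1 and 10268 for Hba-a2. Beta globin was not low there: the 2 genes summed to 2549 FPKM in HXP 5 and 3848 FPKM in HXP 6, above the HXP median of 1984 FPKM.

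The ratio of alpha to beta globin FPKM was 0.170 in HXP 5 and 0.0987 in HXP 6. In the other 16 libraries it was close to 1, from 0.946 to 1.03 in HXP 1 to HXP 4, from 1.01 to 1.38 in MI and from 1.03 to 1.19 in control. MI 3 and MI 5 had the highest ratios, 1.38 and 1.27, and also the highest top minus bottom GC decile differences, 0.28 and 0.27. The next libraries did not keep this order. HXP 1 had the next highest difference, 0.13, with a ratio of 0.96. Control 6 had the next highest ratio, 1.19, with a difference of -0.10. A relation between the 2 was not tested. The share of Hba-a1 in alpha globin was lowest in the same 2 HXP libraries, at 48.9% and 47.3%, with 50.7% to 56.8% elsewhere.

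**Figure D2:**
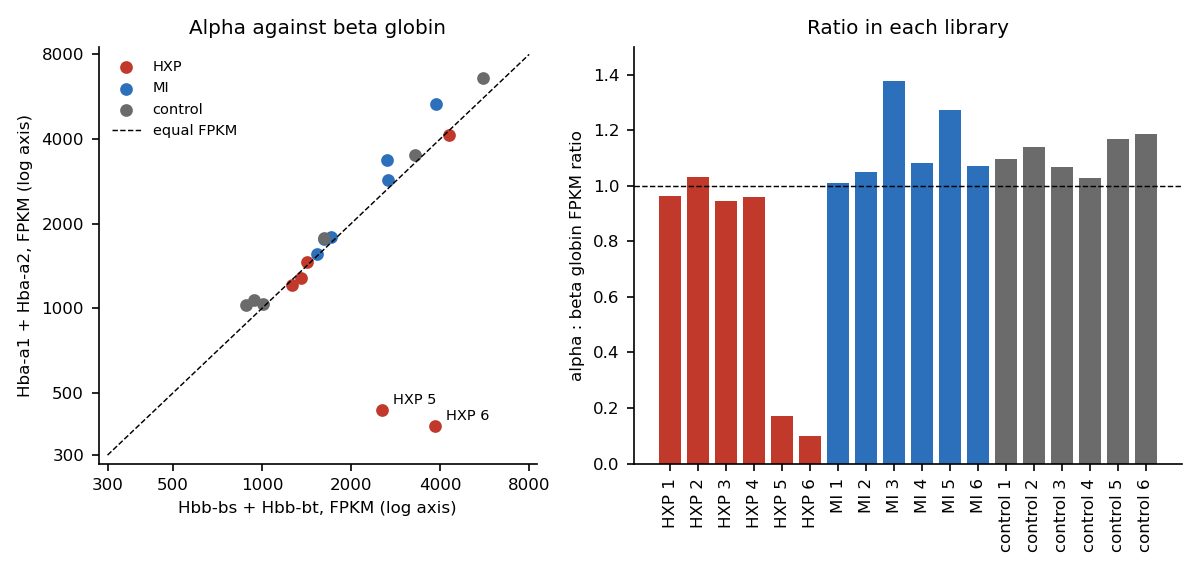
Left, summed Hba-a1 and Hba-a2 FPKM against summed Hbb-bs and Hbb-bt FPKM (log axes) in each library, coloured by group, with the line of equal FPKM dashed; right, the alpha to beta ratio of each library, with 1 dashed. HXP 5 (0.170) and HXP 6 (0.0987) lie far below the other 16 libraries (0.946 to 1.38).

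GC content differs between the pairs. The longest transcript holds 57.2% GC in Hba-a1 and 56.9% in Hba-a2, above 88.0% and 86.4% of the genes tested. It holds 51.3% in Hbb-bs and 50.8% in Hbb-bt. When the trend of each library with GC content was removed by lowess, the mean log2 level of the alpha genes minus that of the beta genes was -2.25 in HXP 5 and -2.96 in HXP 6. Before that step it was -2.49 and -3.28. The same quantity ran, after the step, from -0.10 to 0.08 in the other HXP libraries, from 0.06 to 0.34 in MI and from 0.13 to 0.33 in control. The part of RNA quality, library preparation or read assignment in the low alpha values was not tested.

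**Figure D3:**
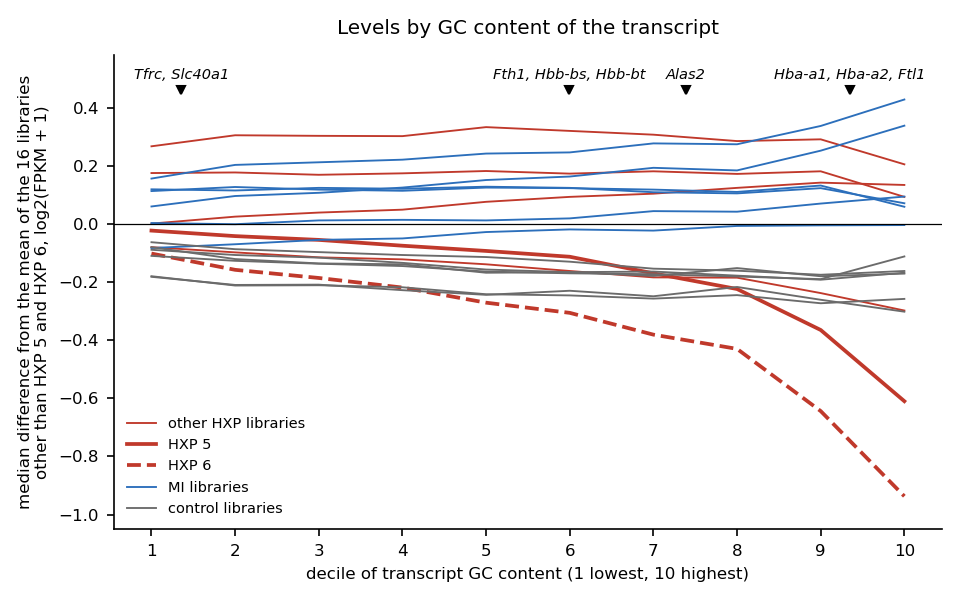
Median difference of each library from the mean of the 16 libraries other than HXP 5 and HXP 6, on the log2(FPKM + 1) scale, by decile of transcript GC content; triangles mark where the 9 genes lie. HXP 5 and HXP 6 drop in the upper deciles, to -0.365 and -0.644 in decile 9, where Hba-a1 and Hba-a2 lie. In decile 10, where Ftl1 lies, they drop to -0.61 and -0.94.

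Alas2 (ENSMUSG00000025270, chromosome X, 150547375 to 150570638, plus strand) encodes the first enzyme of heme synthesis in red cell precursors. It stood at 10.1, 14.8 and 30.7 FPKM (lowest, median, highest) in HXP, 11.1, 15.0 and 30.9 FPKM in MI and 5.45, 9.40 and 42.4 FPKM in control. Its level went with beta globin. Per 1000 FPKM of beta globin there were 7.59 ± 0.82 FPKM of Alas2 in HXP, 7.35 ± 0.59 in MI and 7.05 ± 0.87 in control (SD, n = 6 each). HXP 5 and HXP 6, with 7.08 and 7.98, were within that range.

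None of the 5 red cell genes passed the test between groups, a limma fit on log2(FPKM + 1) across all genes with Benjamini-Hochberg adjustment and called at an adjusted p below 0.05. Of all genes tested, 0% were called in HXP against MI, 0.314% in HXP against control (0.0948% higher, 0.219% lower) and 43.3% in MI against control (40.1% higher, 3.21% lower). In HXP against MI, Hba-a1 had a log2 fold change of -1.30 (limma adjusted p = 0.340, SE 0.57) with 5 of 6 HXP values under the whole MI range, and Hba-a2 of -1.13 (limma adjusted p = 0.369, SE 0.56). Without HXP 5 and HXP 6 the 2 values were -0.57 and -0.47. The beta globins and Alas2 differed by -0.02, -0.03 and 0.02, with a 95% interval of -0.94 to 0.90 for Hbb-bs. In HXP against control the alpha genes stood at -0.94 and -0.69 and the other 3 at 0.27 to 0.49, with limma adjusted p from 0.243 to 0.674. In MI against control all 5 were between 0.29 and 0.51, near the median of 0.27 over all genes, with limma adjusted p from 0.383 to 0.609. With each pair summed before the fit, alpha globin differed by -1.22 in HXP against MI (limma adjusted p = 0.359) and beta globin by -0.03. Library numbers in the file headers were neighbouring in a run of 10 libraries. This run held HXP 2, HXP 5, control 3, control 4, control 6 and every MI library but MI 5. Within the run of 10 libraries, the 5 values of MI against control were negative, at -0.13 to -0.42. Control 6 and control 3 were the controls richest in globin mRNA, at summed levels of 12188 and 6818 FPKM.

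Other red cell genes did not pass the test either. Of the 20 in that list, 19 were in the files and 7 had a mean of at least 0.5 FPKM, and none was called in any comparison (medians -0.07 in MI against control, -0.03 in HXP against MI and -0.01 in HXP against control). Bpgm, the red cell enzyme that makes 2,3-bisphosphoglycerate, was the gene most like Hbb-bs, Hbb-bt and Alas2 over the 18 libraries (Pearson r of log2 levels 0.960, 0.986 and 0.978). The points share tissue and depth, and these values are descriptions. Bpgm held 8.71 and 11.3 FPKM in HXP 5 and HXP 6, against 6.51 to 12.2 FPKM in the other HXP libraries. Klf1 and Gata1, which encode transcription factors of red cell precursors, were close to 0: Klf1 averaged 0.045 FPKM in HXP, 0.063 FPKM in MI and 0.053 FPKM in control, and Gata1 0.030 FPKM in HXP, 0.026 FPKM in MI and 0.016 FPKM in control.

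The iron genes carry iron-responsive elements, shown here because they are where cellular iron acts on these mRNAs. The pattern searched was the loop CAGTGN flanked by 5 paired bases (Watson-Crick or G with T) on each side, with an unpaired C 6 bases before the loop. It was read on the transcript strand of GENCODE M21 (GRCm38), where 562 of 58797 protein-coding transcripts (0.956%) hold it. The loops are in capitals:
Fth1, 5′ UTR, chr19:9982732-9982761, plus strand: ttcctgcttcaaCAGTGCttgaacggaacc
Ftl1, 5′ UTR, chr7:45459778-45459807, minus strand: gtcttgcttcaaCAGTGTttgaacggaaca
Slc40a1, 5′ UTR, chr1:45925464-45925493, minus strand: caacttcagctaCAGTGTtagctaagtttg
Alas2, 5′ UTR across an exon junction, chrX:150547458-150552150, plus strand: ttggttcgtcctCAGTGCagggcaacagga
Tfrc, first of 4 in the 3′ UTR, chr16:32631219-32631248, plus strand: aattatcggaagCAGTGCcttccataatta
Tfrc, second, chr16:32631598-32631627, plus strand: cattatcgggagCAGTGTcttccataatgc
Tfrc held 4 matches, and Fth1, Ftl1, Slc40a1 and Alas2 held 1 each. The 4 globin transcripts held none. A match is a description of the letters, and element use was not measured in these libraries.

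Ftl1, the ferritin light chain (ENSMUSG00000050708, chromosome 7, 45457944 to 45459884, minus strand), was the only 1 of the 9 genes called in any comparison. It stood at 216, 362 and 598 FPKM (lowest, median, highest) in MI and at 141, 145 and 160 FPKM in control. All 6 MI libraries lay above all 6 controls, which were within 1.13 times of each other. It rose in MI against control by a log2 fold change of 1.30 (limma adjusted p = 0.0211, SE 0.40, exact permutation p = 0.00216, the smallest this design can give). Against 43.3% of all genes called in this comparison, 1 of the 9 was, and the groups did not overlap for 29.2% of all genes. Ftl1 was no longer called without MI 5, its highest MI library (1.15, limma adjusted p = 0.0550). MI 5 also held the lung epithelium marker sum of 1167 FPKM. Within the run of 10 libraries Ftl1 was 1.14 (limma adjusted p = 0.0754). With the run as a covariate it was 1.32 (limma adjusted p = 0.0376). Over all genes, 5934 were called with every library, 2656 without MI 5 and 79 within the run of 10 libraries.

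In HXP, Ftl1 spread 8.70 times, from 83.9 FPKM in HXP 6 to 730.1 FPKM in HXP 3, with 384, 581, 194 and 172 FPKM in HXP 1, 2, 4 and 5. Thus 5 of 6 HXP libraries lay above all controls and HXP 6 below them, and 1.70% of all genes had groups that did not overlap in that comparison. The log2 fold change was 0.91 (limma adjusted p = 0.131, SE 0.40) in HXP against control and -0.39 (limma adjusted p = 0.621, SE 0.40) in HXP against MI. Without HXP 5 and HXP 6, HXP against control was 1.51 (limma adjusted p = 0.00763) and 43.5% of all genes were called, against 0.314% with them. Ftl1 is itself GC-rich, with 58.1% GC, above 91.0% of the genes tested. After the GC trend was removed its log2 level was 7.84 in HXP 5 and 7.11 in HXP 6, with 7.80 to 9.20 in the other HXP libraries, 7.69 to 8.78 in MI and 7.25 to 7.43 in control.

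Like Ftl1, most markers of macrophages, which store iron from old red cells, rose in MI, as did markers of other cell types below. Of 13 tested, 11 rose in MI against control, where 40.1% of all genes were called higher (median log2 fold change 1.42, against 0.27 over all genes), and all 14 were detected. They summed to 118 to 1066 FPKM in HXP, 270 to 1143 FPKM in MI and 179 to 251 FPKM in control. The tested macrophage markers not called were Cd163 (0.19, limma adjusted p = 0.513) and Timd4 (0.17, limma adjusted p = 0.305). Fibroblast markers rose too, 6 of 6 beside the same 40.1% of all genes (median 3.17), with sums of 85.3 to 2178 FPKM in HXP, 366 to 2221 FPKM in MI and 113 to 160 FPKM in control. Of the cardiomyocyte markers 2 of 8 fell, against 3.21% of all genes. All 3 lymphocyte markers tested rose (Ighm 3.11, Cd79b 0.95 and Cd79a 0.93), with list sums of 3.89 to 431 FPKM in HXP, 8.73 to 322 FPKM in MI and 3.25 to 9.42 FPKM in control. Of the other lists, 1 of 5 neutrophil, 1 of 6 endothelial and 1 of 4 skeletal muscle markers rose, and none of 6 platelet or 5 lung epithelium markers did. The skeletal muscle sum was highest in MI 4, at 53.1 FPKM with an MI median of 9.12 FPKM. The part of these cells in the Ftl1 result was not tested. The 3 genes most like Ftl1 over the 18 libraries were Capg, an actin-capping protein of macrophages (Pearson r 0.988), Vat1 (0.988) and Sh3bgrl3 (0.986), with 57.1%, 59.8% and 58.1% GC. Ftl1 has near copies: 59.3% of its 100-base windows occur unchanged in Ftl1-ps1, whose log2 fold change in MI against control was 0.63 (limma adjusted p = 0.277), so reads could be split between them.

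Fth1, the ferritin heavy chain that oxidises iron on entry (ENSMUSG00000024661, chromosome 19, 9980598 to 9985098, plus strand), did not follow Ftl1. It stood at 680.0, 728 and 1091 FPKM (lowest, median, highest) in HXP, 707, 836 and 1249 FPKM in MI and 698, 820 and 1368 FPKM in control. The groups overlapped, and control 5 was the highest of the 18 libraries. The log2 fold change was 0.04 (SE 0.17, 95% interval -0.32 to 0.40, limma adjusted p = 0.850) in MI against control, -0.17 (SE 0.17) in HXP against MI and -0.13 (SE 0.17) in HXP against control. The sign in MI against control turned under quantile normalization and other scalings. The ratio of Ftl1 to Fth1 FPKM was 0.451 ± 0.335 in HXP, 0.429 ± 0.126 in MI and 0.176 ± 0.034 in control (SD, n = 6 each). It was 0.259 or more in MI and 0.205 or less in control, while HXP held both the highest value, 1.00 in HXP 3, and a value among the controls, 0.115 in HXP 6.

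Tfrc, the transferrin receptor (ENSMUSG00000022797, chromosome 16, 32608920 to 32632794, plus strand), was lowest in HXP. It stood at 5.39, 7.80 and 13.5 FPKM (lowest, median, highest) in HXP, 6.99, 16.2 and 27.3 FPKM in MI and 10.1, 18.8 and 30.7 FPKM in control. Of the 6 HXP libraries, 4 lay below all controls and 3 below all MI libraries. HXP 2 and HXP 6, at 13.5 and 12.7 FPKM, were within the control range.

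In HXP against control the log2 fold change of Tfrc was -1.02 (SE 0.30, 95% interval -1.65 to -0.39), which did not pass over all genes (limma adjusted p = 0.0881). The exact permutation test of Tfrc alone gave p = 0.00866. The value passed under quantile normalization (-1.18, limma adjusted p = 0.0447), non-mitochondrial scaling, median-ratio scaling, array weights and the GC correction, and without HXP 5 and HXP 6 (-1.17, limma adjusted p = 0.0161). Under those scalings, array weights and the GC correction, 677 to 1281 of all 13710 genes were called, against 43 in the fit above. Without HXP 5 and HXP 6, 43.5% of all genes were called. Of 30 alternatives, 21 left Tfrc uncalled, with limma adjusted p up to 0.190. Among them were the run as a covariate and the run of 10 libraries, where HXP 2 and HXP 5 were the only HXP libraries. Over all alternatives the log2 fold change of Tfrc ran from -1.24 to -0.88. In HXP against MI it was -0.80 (limma adjusted p = 0.307, SE 0.30), where 0% of genes were called and 1891 had an unadjusted p below 0.05. In MI against control it was -0.22 (SE 0.30, 95% interval -0.86 to 0.41, limma adjusted p = 0.545). Tfrc is GC-poor (39.8% GC, above 5.30% of genes tested), and HXP 5 and HXP 6 held more of it, 8.91 and 12.7 FPKM, than the HXP median.

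Slc40a1, ferroportin, the iron exporter (ENSMUSG00000025993, chromosome 1, 45908068 to 45926523, minus strand), was the least abundant of the 9, on 1234 to 2387 reads. It stood at 2.43, 2.59 and 3.496 FPKM (lowest, median, highest) in HXP, 1.86, 2.05 and 2.21 FPKM in MI and 1.79, 2.28 and 3.21 FPKM in control. All 6 HXP libraries were above all 6 MI libraries, which holds for 0.423% of the genes tested in this comparison in either direction. HXP 1, HXP 3, HXP 4 and HXP 6 were in a run of library numbers that held no MI library. For them, group and run cannot be told apart in HXP against MI. The log2 fold change in HXP against MI was 0.29 (SE 0.09, 95% interval 0.10 to 0.48), which did not pass (limma adjusted p = 0.256, exact permutation p = 0.00216, the smallest possible). It was 0.16 (limma adjusted p = 0.214, SE 0.09) in HXP against control and -0.13 (limma adjusted p = 0.251, SE 0.09) in MI against control. The last was called lower under quantile normalization (-0.49, limma adjusted p = 0.0179), median-ratio scaling (-0.40, limma adjusted p = 0.0192), non-mitochondrial scaling (-0.29) and the GC correction (-0.33). With FPKM scaled to the sum without globins it was 0.02.

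**Figure D4:**
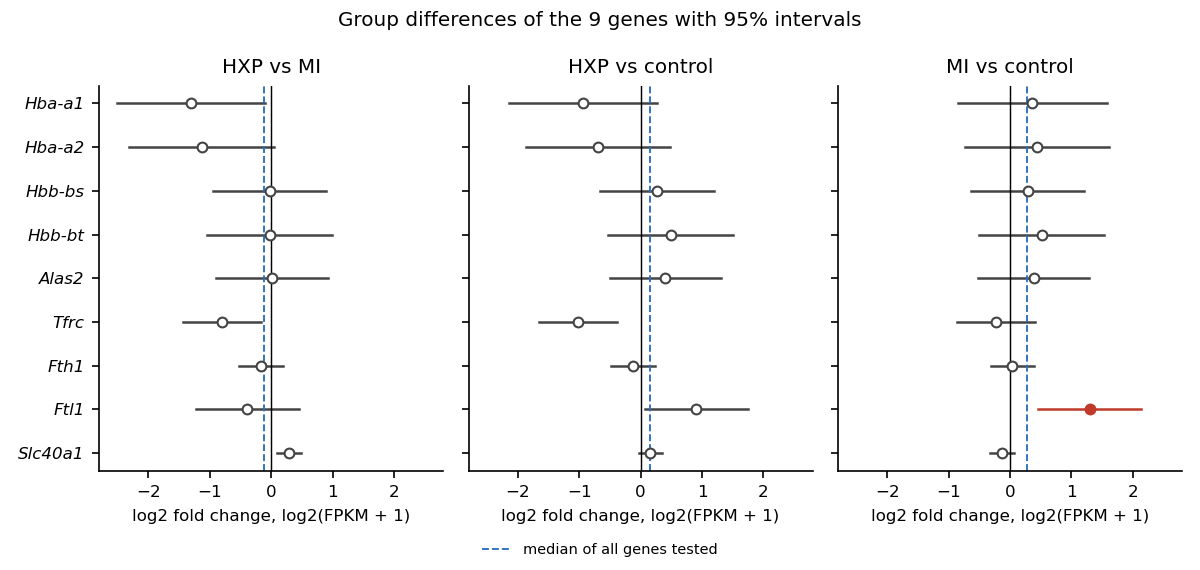
Fitted log2 fold change of each gene on the log2(FPKM + 1) scale (point) with its 95% interval (line) in HXP against MI, HXP against control and MI against control; filled red marks an adjusted p below 0.05 and the dashed line is the median of all 13710 genes. Ftl1 in MI against control (1.30) is the 1 filled point, and the intervals of Tfrc in HXP against MI and HXP against control end at -0.17 and -0.39.

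The iron genes followed globin mRNA less closely than the red cell genes followed each other. Pearson r between the log2 levels of Hbb-bs and those of Tfrc, Fth1, Ftl1 and Slc40a1 was 0.094, -0.022, -0.086 and -0.235, while it was 0.969 with Hbb-bt and 0.974 with Alas2. For Hba-a1 the values with Tfrc, Fth1, Ftl1 and Slc40a1 were 0.209, 0.345, 0.349 and -0.279 over 18 libraries and 0.145, 0.189, 0.075 and -0.309 without HXP 5 and HXP 6. For Hba-a2 they were 0.178, 0.341, 0.362 and -0.263 over the 18, and Spearman rho with Slc40a1 was -0.441 for Hba-a1 and -0.453 for Hba-a2. Hba-a1 and Hbb-bs had r = 0.456 over 18 libraries and 0.978 over the 16 without HXP 5 and HXP 6. Among the iron genes, Tfrc and Slc40a1 had the strongest relation (r = -0.685, Spearman rho -0.711, n = 18), and Fth1 and Ftl1 had r = 0.222. These are descriptions over libraries that share tissue and depth, with the groups pooled. With the mean log2 globin level as a covariate, Ftl1 in MI against control was 1.23 (limma adjusted p = 0.0361), Tfrc in HXP against control -1.02 (limma adjusted p = 0.0965) and Slc40a1 in HXP against MI 0.28 (limma adjusted p = 0.588).

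The genes most like the other members differed by pair. Hba-a1 was nearest to Kif26a, G0s2 and Eif4g1 (r 0.870, 0.867 and 0.866) and Hba-a2 to Eif4g1, Stat5b and Kif26a (0.849, 0.839 and 0.832). Without HXP 5 and HXP 6 these values were 0.692 to 0.729, and their GC content was 52.7% to 61.7%. Hbb-bs had Car2, a carbonic anhydrase, at rank 3 (0.772), Hbb-bt had Tent5c (0.790) and Alas2 had Chtop (0.772). Tfrc was nearest to Glrx (0.768), Fam160a1 (0.760) and Grip2 (0.753). Fth1 was nearest to Exosc3 (0.894), Dnlz (0.894) and Rps2 (0.857), and Slc40a1 to Ccrl2 (0.847), Sqor (0.816) and Nme6 (0.769).

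Around these 9 genes, 22 of 72 tested list entries of heme and iron handling and red cells (30.6%) were called in MI against control. This was a smaller share than the 43.3% of all genes. Fech is in both the red cell and the heme synthesis list, so it counts in each, and it was not called. Of the 22, 19 were higher and 3 lower. The split depends on scaling, with 6 of 25 higher under quantile normalization, 9 of 22 under non-mitochondrial scaling and 7 of 29 under median-ratio scaling. The genes with a log2 fold change above 1 were called higher in each of the 4 other scalings and the GC correction. In heme uptake, export and breakdown, 5 of 11 rose and none fell, against 40.1% higher and 3.21% lower over all genes (median 0.34, against 0.27 over all genes). Hp, which encodes haptoglobin, the plasma protein that binds free haemoglobin, stood at 0.716, 22.6 and 50.6 FPKM (lowest, median, highest) in MI and at 0.541, 0.649 and 1.05 FPKM in control (log2 fold change 3.31, SE 0.91, limma adjusted p = 0.0158). Not every MI library was above the controls. Lrp1, the receptor for the complex of heme with hemopexin, stood at 16.4, 41.6 and 61.7 FPKM in MI and 6.14, 8.07 and 9.79 FPKM in control, with no overlap (2.10, limma adjusted p = 0.0146, SE 0.52). Hmox1, heme oxygenase 1, which opens the heme ring and frees its iron, stood at 4.62, 10.2 and 16.1 FPKM in MI and 2.45, 3.22 and 4.38 FPKM in control, again with no overlap (1.22, limma adjusted p = 0.0164, SE 0.34). Slc48a1, a heme transporter of lysosomes, rose by 0.45 and kept its call in 1 of those 5 alternatives.

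In iron uptake and release from stores, 5 of 9 rose and none fell, against the same 40.1% and 3.21% of all genes (median 0.64, against 0.27). Trf, transferrin, stood at 12.9, 46.4 and 51.2 FPKM in MI and 6.70, 9.34 and 10.5 FPKM in control (log2 fold change 1.84, SE 0.49, limma adjusted p = 0.0152). Slc11a1, a metal transporter of macrophage phagosomes, stood at 1.29, 3.66 and 4.31 FPKM in MI and 0.642, 0.878 and 1.198 FPKM in control (1.09, limma adjusted p = 0.0166, SE 0.31). The metal importers Slc39a8 and Slc39a14 rose by 0.65 and 0.37, the first called in 4 and the second in 1 of the 5 alternatives. Both tested ferroxidases rose, Cp (ceruloplasmin) by 0.60 and Heph (hephaestin) by 0.38, each called in 1 of the 5.

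In iron sensing and hormonal control 4 of 11 rose and 1 fell, close to the 40.1% and 3.21% of all genes (median 0.26, against 0.27). Hjv, hemojuvelin, a co-receptor that turns on hepcidin in liver and is also made in muscle, stood at 34.3, 49.4 and 61.8 FPKM in MI and 62.6, 67.6 and 75.8 FPKM in control, with no overlap. It fell by 0.48 on the log2 scale (limma adjusted p = 0.0196, SE 0.14). Neo1 (0.50), Bmpr1a (0.29) and Pcbp2 (0.26) rose, each called higher in 1 of the 5 alternatives, and Bmpr1a and Pcbp2 changed sign in 2 of them. Hamp, hepcidin, was listed at 0 in 5 of 6 HXP libraries, with 1.383 FPKM in HXP 5, in 6 of 6 MI libraries and in 5 of 6 controls. In heme synthesis 1 of 11 rose (Ppox, 0.43) and 1 fell (Alad, the second enzyme, by 0.41 on the log2 scale). In mitochondrial iron and iron-sulfur clusters, 1 of 19 rose (Slc25a37, mitoferrin 1, 0.43) and 1 fell (Abcb10, by 0.22 on the log2 scale), with a list median of -0.05. Of the oxygen carriers, Cygb, cytoglobin, rose by 1.46 (limma adjusted p = 0.0183, SE 0.43). Mb, myoglobin, the oxygen store of heart muscle, averaged 3488 ± 839 FPKM in MI and 4427 ± 474 FPKM in control (SD, n = 6 each, log2 fold change -0.37, limma adjusted p = 0.0776). Without MI 5, 12 of these genes were called, and within the run of 10 libraries 0 were, where Hp was 3.26 (limma adjusted p = 0.0881), Lrp1 1.87 (limma adjusted p = 0.0606) and Trf 1.79 (limma adjusted p = 0.0706).

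**Figure D5:**
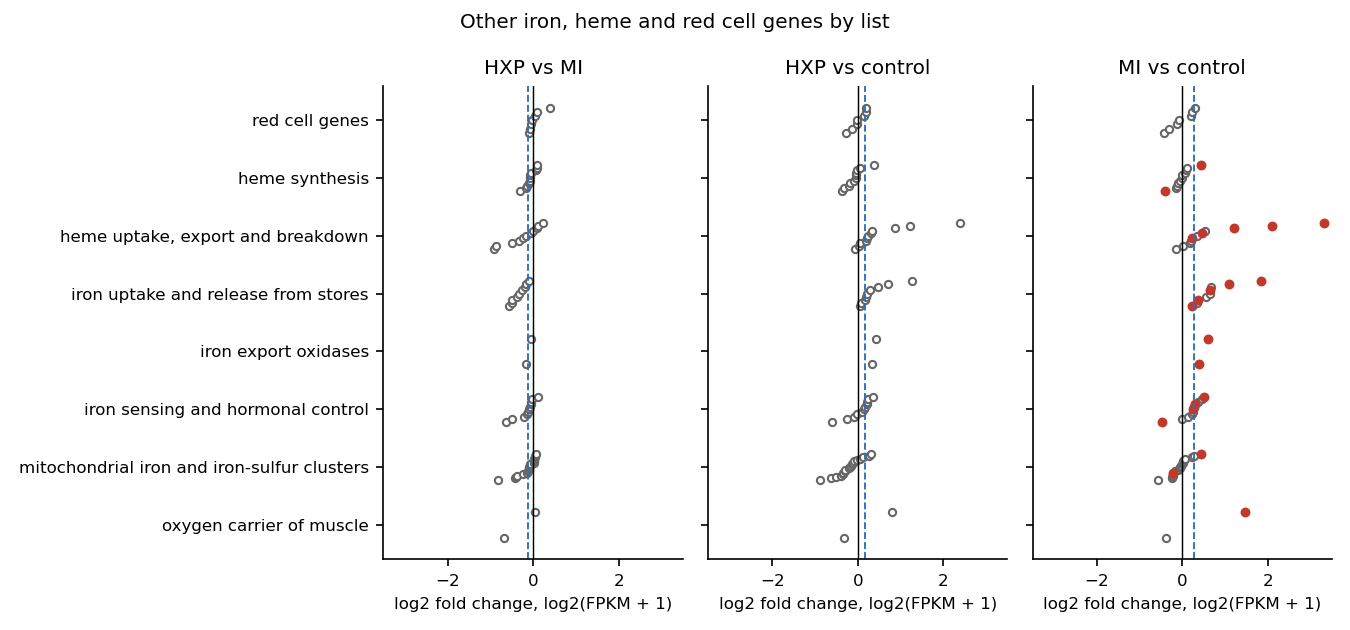
Log2 fold change on the log2(FPKM + 1) scale of each tested gene of 8 heme, iron and red cell lists. The comparisons are HXP against MI, HXP against control and MI against control. Filled red marks an adjusted p below 0.05, and the dashed line is the median of all genes tested. Filled points occur in MI against control (22 genes, Hp at 3.31 the farthest right) and in neither other comparison.

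In HXP against MI, 0 of these genes were called. All 9 tested genes of iron uptake and release had negative log2 fold changes, as did 75.4% of all genes tested. The list median was -0.32, against -0.12 over all genes. The smallest p in each list belonged to Pcbp1, an iron chaperone (-0.62, limma adjusted p = 0.251, SE 0.18), Glrx5, of iron-sulfur cluster assembly (-0.82, limma adjusted p = 0.258, SE 0.27), Alas1 (-0.31), Slc11a2 (-0.18), Rhd (0.41), Blvrb, biliverdin reductase B (-0.49), Cygb (-0.67) and Cp (-0.17), the last 6 with limma adjusted p from 0.321 to 0.708.

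In HXP against control 0 were called as well, with the closest at Hjv (-0.60, limma adjusted p = 0.0676, SE 0.14), Bola3, of iron-sulfur cluster assembly (-0.61, limma adjusted p = 0.0715, SE 0.15), and the heme exporter gene Abcg2 (0.34, limma adjusted p = 0.0810, SE 0.09). Ppox (0.38), Slc39a14 (0.28), Heph (0.34), Mb (-0.32) and Ank1 (-0.27) had the smallest p of their lists, with limma adjusted p from 0.0910 to 0.263. Without HXP 5 and HXP 6, 24 of these genes (72 list entries) were called, 20 of them higher, with 43.5% of all genes called. Hp was then 3.21 (limma adjusted p = 0.0171), Lrp1 2.06 (limma adjusted p = 0.00721), Trf 1.85 (limma adjusted p = 0.0107) and Hmox1 1.29 (limma adjusted p = 0.0104). In HXP the levels of Hp spread from 0.454 to 62.3 FPKM, of Lrp1 from 3.01 to 80.0 FPKM and of Trf from 6.16 to 83.0 FPKM.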

How the data were processed

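The files hold 1 value per Ensembl gene and library. The unit is not named in the files; the deposited values behave as FPKM made by the authors, since each value times exon length comes out as a whole read number within 0.1 of a read for 98.2% to 98.6% of the 5464 to 7132 low values examined in a library. The recovered reads describe depth only. Build GRCm38 and limma are named per the submitters' processing notes; for the aligner, counting method and annotation, nothing is stated in the sources used here. IDs were matched to GENCODE M21 (34057 of 34150).

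Values were tested as log2(FPKM + 1), a scale that understates changes of low genes, for the 13710 genes averaging 0.5 FPKM or more. One model with 3 groups was fitted to all 18 libraries in R 4.3.3 by limma 3.58.1 (two-sided, variance trend, Benjamini-Hochberg adjusted p below 0.05). Data were simulated for 13710 genes with independent normal noise of each gene's own spread. Changes were added only to genes with a mean log2(FPKM + 1) above 3, a level that Slc40a1 did not reach. In these genes, 83.0% of log2 changes of 1 and 92.0% of changes of 2 were called in MI against control. The shares were 87.0% and 96.0% in HXP against MI, and 86.0% and 95.0% in HXP against control. At most 0.120% of unchanged genes were called. The share of changes of these sizes that would be called in the 18 libraries themselves was not tested. There, Hba-a1 in HXP against MI, at -1.30 with an SE of 0.57, was not called. The 9 genes, the lists and the tests were chosen with earlier results of these data known. Named genes were the 9, up to 4 called genes per list in order of p (else the smallest p), and the 3 genes most correlated with each of the 9. One gene that this rule names is not reported here. Klf1, Gata1, Hamp, Ftl1-ps1, Mb in MI against control and the list genes given without HXP 5 and HXP 6 were picked once their values were known. Of 177 list genes 172 were in the files. Alternatives were other scalings, pseudocounts and filters, the replicate block, the run of library numbers, array weights, a globin covariate and each library left out. Settings added after seeing the data were the omission of HXP 5 and HXP 6 and the GC correction (lowess, span 0.3). Promoters are from RefSeq. Figures were drawn with matplotlib 3.10.9.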

Additional observations from a re-analysis of the deposited data

Results flagged for a closer look

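Fth1 in control 5 lay far from the other controls. Its level there was 1368 FPKM, with a control median of 820 FPKM, and on the log2(FPKM + 1) scale its gap to the nearest control was 0.698 of the range of the group, above Dixon's critical value for 6 libraries. Of 27 groups checked (9 genes in 3 groups) this was the only one, and chance flags about 1 group in 20. Without control 5 the log2 fold change of Fth1 was 0.01 in HXP against control.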

How the results depend on the processing

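Most values of the 9 genes kept their direction and their side of the threshold. The counts that moved were these. Of the 9 genes, MI against control called 1, with 2 under quantile normalization, non-mitochondrial scaling, median-ratio scaling, the GC correction and the GC correction with the replicate block, and 0 in the run of 10 libraries. HXP against control called 0, with 1 under the same 3 scalings, array weights and the GC correction, and 2 without HXP 5 and HXP 6 and under the GC correction with the replicate block. HXP against MI called 0, and 2 with array weights (Tfrc -1.10 and Ftl1 -0.76). Leaving out 1 library gave 0 to 1 in MI against control (0 without MI 5), 0 to 2 in HXP against control (2 without HXP 6) and 0 in HXP against MI. Other heme and iron genes called in MI against control were 22, with 14 at a mean of at least 5 FPKM, 34 with the compared groups only, 0 in the run of 10, 47 with array weights and 12 (without MI 5) to 25 on leaving out 1 library. In HXP against control they were 0, with 7 under quantile normalization, 8 under non-mitochondrial scaling, 10 under median-ratio scaling, 2 at 5 FPKM, 6 with array weights, 24 without HXP 5 and HXP 6, 8 under the GC correction, 11 with the replicate block added to it, and 0 to 22 (without HXP 6) on leaving out 1 library. In HXP against MI they were 0, with 25 under array weights and 0 to 1 on leaving out 1 library. Over all genes, MI against control called 5934 of 13710, with 2292 of 5633 at 5 FPKM and 8141 with the compared groups only. HXP against control called 43 of all genes, with 85 of 5633 at 5 FPKM and 1315 under the GC correction with the block. Counts over all genes for most other settings are given below. The cause of these moves was not tested.

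Signs turned as follows, all without a call. In MI against control, median-ratio scaling gave -0.03 for Hba-a1, -0.11 for Hbb-bs and -0.36 for Fth1. Fth1 was -0.12 under quantile normalization, -0.20 under non-mitochondrial scaling and -0.24 under the GC correction with or without the block, where Hbb-bs was -0.01. The run of 10 gave -0.32, -0.24, -0.42, -0.13 and -0.19 for Hba-a1, Hba-a2, Hbb-bs, Hbb-bt and Alas2, and 0.02 for Slc40a1, which was also 0.02 when scaled without globins. Array weights gave -0.15, -0.01 and -0.10 for Hba-a1, Hba-a2 and Hbb-bs, 0.02 for Tfrc and -0.06 for Fth1. In HXP against MI, Hbb-bs was 0.12 under quantile normalization and non-mitochondrial scaling, 0.14 under median-ratio scaling, 0.29 with array weights and 0.10 under the GC correction with or without the block. Hbb-bt was 0.12 under non-mitochondrial scaling, 0.14 under median-ratio scaling, 0.27 with array weights and 0.09 under the GC correction with or without the block. Alas2 was -0.08 scaled without globins, -0.17 with the run as a covariate, -0.18 in the run of 10 and -0.23 without HXP 5 and HXP 6, where Ftl1 was 0.21. In HXP against control, the run of 10 gave -0.56, -0.30 and -0.37 for Hbb-bs, Hbb-bt and Alas2. Its only HXP libraries were HXP 2 and HXP 5. Hbb-bs in HXP against control was -0.00 without HXP 5 and HXP 6. Slc40a1 was -0.04 there under quantile normalization, -0.00 under median-ratio scaling and -0.01 under the GC correction with or without the block. On leaving out 1 library, Fth1 ran from -0.06 to 0.18 in MI against control and from -0.22 to 0.01 in HXP against control, and in HXP against MI Hbb-bs ran from -0.21 to 0.13, Hbb-bt from -0.25 to 0.20 and Alas2 from -0.16 to 0.19.

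Libraries with the same number were not paired by the labels, and most did not vary together. Correlations ran from -0.31 to 0.64, with 5 of 18 pairs over 0.1 and the highest between HXP 6 and MI 6. Of 18 libraries, 2 matched best with their own number. With the replicate block Ftl1 in MI against control was 1.30 (limma adjusted p = 0.0169), and 1 of the 9 genes, 0 in HXP against MI and 0 in HXP against control were called.

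Over all genes, calls in MI against control numbered 5934 (92.6% higher), with 4181 (43.3% higher) under quantile normalization, 4074 (72.9%) under non-mitochondrial scaling, 4470 (50.5%) under median-ratio scaling, 4252 (53.9%) under the GC correction, 9707 with array weights, 79 in the run of 10 and 2656 without MI 5. In HXP against control they numbered 43, with 1231, 1257, 1281 and 1084 under the same 4 settings, 677 with array weights, 4236 without HXP 6, 291 without HXP 1, 5967 without HXP 5 and HXP 6 and 0 without HXP 5. In HXP against MI they numbered 0, with 5576 under array weights, which gave MI 1 a weight of 6.44 and HXP 3 of 0.130, and 71 without HXP 1. The median log2 fold change of MI against control, 0.27, was -0.07, 0.10 and -0.01 under the 3 scalings and 0.42 when scaled without globins. The least abundant of the 9 genes, Slc40a1, rested on 1234 to 2387 reads per library.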
